A study of Mus musculus with 2 samples.

Results

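The genes described are those of the cytosolic ribosome. They were taken by symbol, Rps or Rpl followed by a number with at most a short suffix, together with Rplp0, Rplp1, Rplp2 and Rpsa, and without the Rps6k kinases. The rule found 84 of the 27998 genes of the matrices, and it used no measured value. By their symbols, 32 of the 84 genes belong to the small subunit (Rpsa included), 49 to the large subunit and 3 to the stalk. They lie on 19 chromosomes, 14 of them on chromosome 7 and 4 on X.

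The cells were mouse induced pluripotent stem cells (iPSCs), made by reprogramming somatic cells until they resemble embryonic stem cells. The knockout cells were SRFΔ/Δ, with both alleles of Srf deleted. The wild-type cells were SRFf/f, so they carried floxed alleles that had not been recombined. Both were grown in medium with serum, and each genotype was profiled as 1 droplet library on the Chromium platform of 10x Genomics. Srf encodes serum response factor, a transcription factor that binds CArG boxes in promoters of cytoskeletal and serum-induced genes. With 1 library per genotype, genotype and library cannot be told apart. No p-value can therefore be had for a difference between them. Whether a genotype stands for 1 clone or several is not given in the sources used here, and the parallel bulk RNA sequencing was not analysed here.

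Ribosomal proteins are assembled with ribosomal RNA in the nucleolus into a small subunit, which decodes the mRNA, and a large subunit, which joins amino acids. They are needed in nearly equal numbers, and many of their mRNAs begin with a short tract of pyrimidines through which growth signals control their translation. Pluripotent cells divide fast and devote a large part of their mRNA to these genes.

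The knockout library held 1073 cells and 22277996 unique molecular identifiers (UMIs, each counting 1 captured RNA molecule), and the wild-type library 954 cells and 24005849 UMIs. The libraries shared 2 cell barcodes. Cells with at least 1000 detected genes and under 5 UMIs summed over the fibroblast genes Col1a2, Col3a1 and Acta2 were split by the share of UMIs from the 13 mitochondrially encoded mt- genes. At 1 to 10% lay 731 knockout and 893 wild-type cells, with medians of 24423 and 26656 UMIs per cell. Under 1% lay 244 knockout cells but 16 wild-type cells, with medians of 8632 and 16568.5 UMIs. Srf itself had 3 UMIs over the knockout cells and 202 over the wild-type cells at 1 to 10%, and 0 and 2 UMIs in those under 1%. All 10 pluripotency markers were detected in each of these 4 sets, at summed levels from 9397 to 13378 UMIs per 1e+06 UMIs of the set (CPM). Dppa5a alone made up most of each sum, at 6777 to 10272 CPM, and single markers differed between the sets. Sox2 stood at 191 CPM in knockout cells at 1 to 10% and 47.8 CPM in those under 1%, and Nanog at 62.5 and 149 CPM. At 1 to 10%, primitive endoderm markers summed to 352 CPM in the knockout and 14.3 CPM in the wild type, macrophage markers to 135 and 56.1 CPM, and fibroblast markers to 24.8 and 18.3 CPM. Within that range 109 knockout and 4 wild-type cells carried at least 5 UMIs of the primitive endoderm list.

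The members were the source of a large part of the RNA counted in the cells of either library. In cells at 1 to 10% mt- their share of a cell's UMIs was lowest at 16.2%, 36.2% at the median and highest at 48.9% over the 731 knockout cells. Over the 893 wild-type cells the lowest share was 16.7%, the median 37.9% and the highest 50.7%. The knockout median was thus lower by a difference of -1.69 percentage points, while the ranges overlapped almost wholly, and 228 of 731 knockout cells (31.2%) lay above the wild-type median. Pooled over cells, the share was 36.6% in the knockout (exact binomial 95% interval 36.55 to 36.60%) and 37.8% in the wild type (37.80 to 37.84%). These intervals, and all others given here, cover counting error only. Both subunits took part, the small subunit with medians of 15.5 and 16.2% and the large subunit with the stalk with medians of 20.8 and 21.7%.

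Mitochondrial RNA stands in the denominator of these shares and was more abundant in the knockout cells, at a median of 4.38% against 3.48%. Without the mt- genes in the denominator the medians were 37.8 and 39.3%. The 109 knockout cells with primitive endoderm markers had a median share of 34.2%, and the other knockout cells in that range had 36.4%. The wild-type cells without those markers had a median of 37.9%, so the knockout median was also the lower one with such cells left out on both sides.

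In cells under 1% mt- the median share was 35.1% in the 244 knockout cells, with a range of 21.1 to 49.5%. It was 38.8% in the 16 wild-type cells, with a range of 30.1 to 47.3%, which gave a difference of -3.72 points. Within the knockout library the cells under 1% stood at -1.10 points against those at 1 to 10%. That difference was -0.352 points among cells of at least 10000 UMIs and -2.60 points without mt- genes in the denominator. Depth moved with the share in the knockout: across the 731 cells at 1 to 10%, Pearson's r between the share and the logarithm of the cell's UMIs was 0.30, and across the 893 wild-type cells it was 0.08. The points are cells of 1 library each, and the depth enters both quantities.

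**Figure D1:**
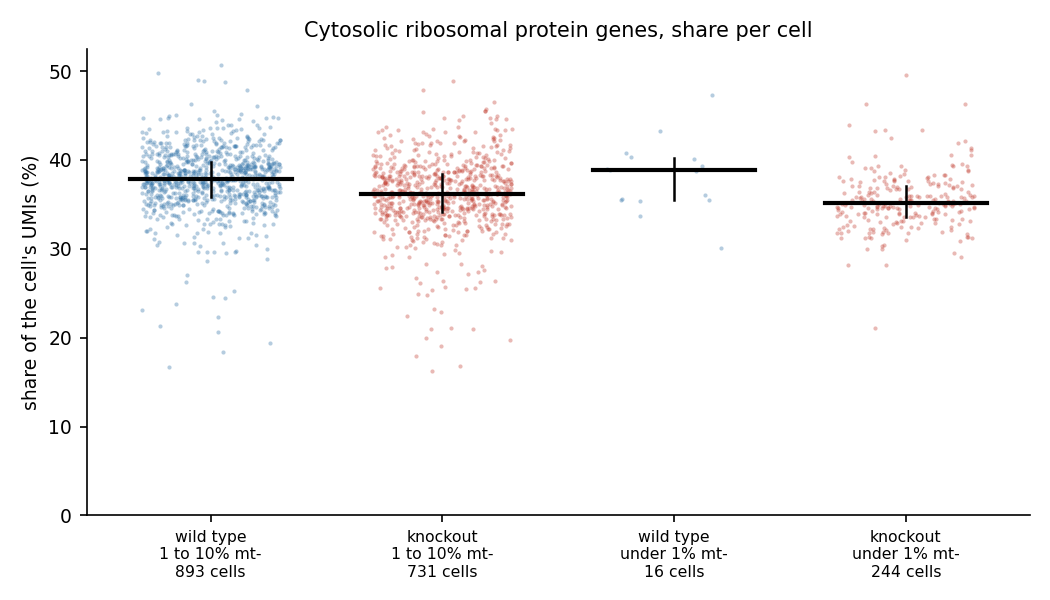
Share of each cell's UMIs that came from the 84 ribosomal protein genes, in percent, by library and by mt- share; each point is a cell, the thick bar the median and the thin line the middle 50% of cells. The medians are 37.9 and 36.2% at 1 to 10% mt- (wild type, knockout) and 38.8 and 35.1% under 1%, and the clouds of points overlap.

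Single members were then compared between the libraries from counts summed over cells and scaled to CPM. At 1 to 10% mt-, 81 of the 84 members reached a mean of 10 CPM. Over the members the knockout over wild-type log2 ratio had a median of -0.14, against 0.09 over the 6554 genes tested and -0.02 over the 1223 of them with at least 100 CPM. The ratio was below 0 for 62 members and above 0 for 19. It was below 0 for 2558 of the 6554 genes tested, and for 657 of the 1223 with at least 100 CPM. Counting intervals lay wholly below 0 for 62 members and wholly above for 18. At the depth of most members such intervals are narrow, and the count of such intervals over all genes was not taken. At 1.3-fold or more, 9 members (11.1%) were higher in the knockout library, where 17.3% of all genes tested were. In the other direction 3 members (3.70%) were lower, where 6.77% of all genes were. Both shares were below those over all genes. Over the genes of at least 100 CPM, members among them, 8.42% were higher and 5.97% lower. Most members stand far above that level. With 9 and 3 members past the fold, no difference from these genes is read from the shares.

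The 9 higher members were Rps29, Rps28, Rps27 and Rps21 of the small subunit and Rpl38, Rpl39, Rpl37, Rpl37a and Rpl41 of the large one. Rps29, a zinc-binding protein of the head of the small subunit (gene at chr12:69157722-69159186, minus strand, GRCm38), stood at 9127 CPM in the knockout and 4735 CPM in the wild type, a log2 ratio of 0.95 (95% counting interval 0.94 to 0.96). Rps28 (chr17:33819027-33824562, minus strand), which lies near the exit of the mRNA channel, stood at 5206 and 3052 CPM, a log2 ratio of 0.77. Rpl38 (chr11:114668524-114672331, plus strand), a surface protein whose loss in mice alters the translation of Hox mRNAs, stood at 3600 and 2138 CPM, a log2 ratio of 0.75. These 3 genes had the largest ratios of the 81 members.

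Rps27 (chr3:90212522-90213651, minus strand), another zinc-binding protein, stood at 5890 and 3539 CPM, a log2 ratio of 0.73. Rps21 (chr2:180257377-180258445, plus strand) stood at 3756 and 2332 CPM, a log2 ratio of 0.69. Rpl39 (chrX:37082520-37085402, minus strand), a small protein that lines the exit tunnel of the nascent chain, stood at 4764 and 3419 CPM, a log2 ratio of 0.48. The ratios of Rpl37, Rpl37a and Rpl41 were 0.44, 0.43 and 0.40. Next in order, and short of 1.3-fold, which is 0.38 on this scale, came Rpl35 at 0.37 and Rpl36 at 0.26.

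The difference in Rps29 was visible cell by cell. After each cell had been thinned to 5000 UMIs, Rps29 had a lowest, median and highest count of 9, 44 and 96 UMIs over 724 knockout cells. The same values were 9, 24 and 47 UMIs over 888 wild-type cells. The ranges overlapped, and the knockout median lay close to the wild-type maximum.

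The 3 lower members have symbols of the large subunit. Rpl23a, which sits at the mouth of the exit tunnel where factors meet the nascent chain, stood at 2979 CPM in the knockout and 4241 CPM in the wild type, a log2 ratio of -0.51 (-0.52 to -0.49). Thinned to 5000 UMIs, it had a lowest, median and highest count of 3, 15 and 31 in knockout cells and 4, 21 and 44 in wild-type cells. Rpl6l, a copy related to Rpl6 with no coding length in the annotation used, stood at 200.2 and 279.7 CPM, a log2 ratio of -0.48. Rpl3, which lies beside the peptidyl transferase centre, stood at 3643 and 4828 CPM, a log2 ratio of -0.41. Below the 1.3-fold size followed Rpl27 at -0.33, the small-subunit protein Rps3a1 at -0.32 and Rpl4, which forms the constriction of the tunnel, at -0.31. At 1.2-fold the count of lower members was 11, and at 1.5-fold it was 0 against 5 higher members. The shares of all genes at these sizes were not taken, so these counts show only how the number depends on the size.

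Some members are known also for other roles. Rps6, the substrate of the S6 kinases, had a log2 ratio of -0.28, and Rpsa, known also as the laminin receptor, -0.11. Rpl5 and Rpl11, which can bind and inhibit Mdm2 when ribosome assembly fails, had -0.09 and -0.21. Of the stalk, which recruits elongation factors, the base protein Rplp0 had 0.0034, Rplp1 -0.06 and Rplp2 0.02. The median over the small subunit was -0.14 and over the large subunit -0.16.

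Rpl13, on chromosome 8, had a log2 ratio of 0.05. Among the cells at 1 to 10%, 368 of 731 knockout and 88 of 893 wild-type cells had a raised share of RNA from other genes of chromosome 8, over 1.2 times the wild-type median. Without those cells the ratio was -0.19, so the direction for this member rests on them.

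**Figure D2:**
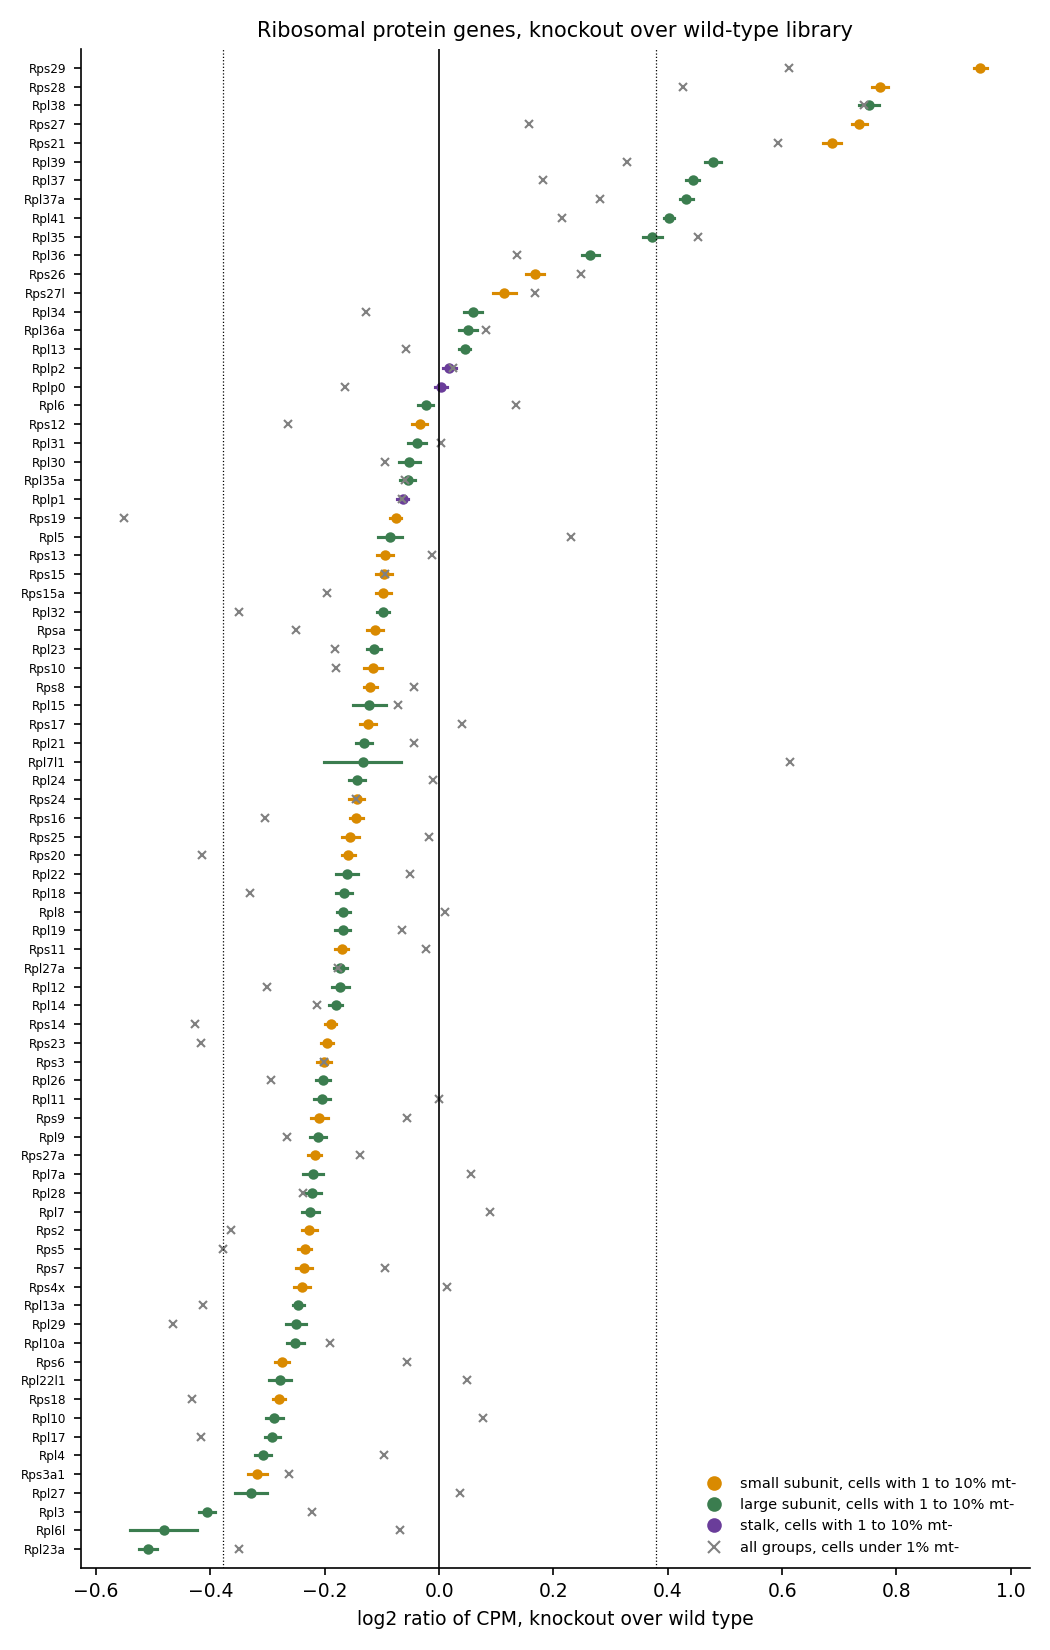
Log2 ratio of CPM, knockout over wild-type library, of 80 of the 81 members with at least 10 CPM, sorted by their value in cells with 1 to 10% mt- (coloured points by subunit, bars are 95% counting intervals). Grey crosses give the ratio in cells under 1% mt-, where the wild type has 16 cells, and dotted lines mark 1.3-fold. Rps29 stands highest at 0.95 and Rpl23a lowest at -0.51.

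The 9 higher members share a short coding sequence. A coding length under 300 nt was found for 11 members, of which 10 reached 10 CPM, and all 9 higher members were among these 10. The tenth, Rps27l, had a ratio of 0.11. The median log2 ratio was 0.58 over the 10 short members, -0.14 over the 47 members of 300 to under 600 nt and -0.22 over the 23 of 600 nt or more. The limits of 300 and 600 nt were chosen after the ratios had been seen. Across the 80 tested members with a coding length, Spearman's rho between ratio and length was -0.63, as a description of genes that share the same 2 libraries.

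At 1 to 10% mt-, other genes of short coding length had a median ratio near 0. Over 193 other genes of under 300 nt the median was 0.03, and over the 105 of these with at least 100 CPM it was 0.06. Across 6379 other genes rho was 0.31, of the opposite sign to that of the members. In cells under 1% mt- rho was -0.34 over members and -0.23 over other genes, and in cells with fibroblast genes it was -0.57 and -0.13, of the same sign. The 5 other short genes of highest level differed among themselves at 1 to 10%. Tmsb4x, which binds actin monomers, stood at 1966 CPM in the knockout and 1476 CPM in the wild type (0.41), as high a ratio as that of Rpl41. Its relative Tmsb10 had 0.13, Cox7c of the respiratory chain 0.11, Hmgn1 -0.013 and Cox8a -0.018.

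The same members were higher in the cells set aside for fibroblast genes. The cells left out for their fibroblast genes, 22 from the knockout library and 10 from the other, held fibroblast markers at 10013 and 8534 CPM. Srf was present there in both, with 14 and 3 UMIs. In these cells the 9 members were all higher by 1.3-fold in the knockout library, where 21.8% of 6918 genes and 30.5% of 203 other genes under 300 nt were. The smallest log2 ratio of the 9 was 0.46 for Rps21, while Rps27l had -0.14. Among members of other lengths Rpl35, with 369 nt, had 0.93. Of the abundant short genes outside the members, Tmsb10 had 0.69 and Tmsb4x -0.56. The largest ratio was that of Rps29, at 7533 CPM in the knockout library and 3763 CPM in the wild-type library. The median over the 10 short members was 0.66, against 0.08 over members of 300 to under 600 nt and -0.07 over longer ones. Pluripotency markers in the sets summed to 385 and 3237 CPM. In cells at 1 to 10% mt- the medians were 0.58 over the short members, -0.14 over those of 300 to under 600 nt and -0.22 over longer ones. The sets with fibroblast genes are small, at 22 and 10 cells, and their marker levels differ between the libraries. The cause of the difference in the short members was not tested.

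**Figure D3:**
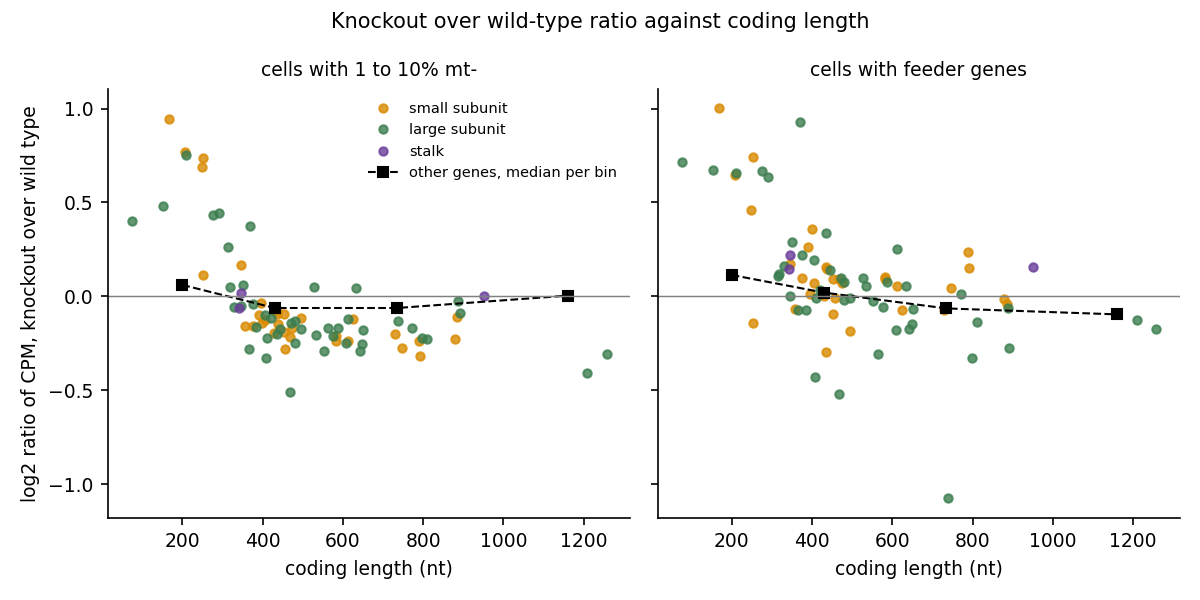
Log2 ratio of CPM, knockout over wild-type library, against coding length in nt, for members by subunit (points) and as the median of other genes of at least 100 CPM per length bin (squares), in cells with 1 to 10% mt- (left) and in cells that carry fibroblast genes (right). Members under 300 nt have medians of 0.58 and 0.66, above those of longer members, while other genes of that length have medians of 0.06 and 0.11. Rpl35, at 369 nt, stands at 0.37 and 0.93, and the short Rps27l at 0.11 and -0.14.

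A share within the ribosomal protein UMIs leaves the level of all other genes aside. The short members supplied 10.5% of a cell's member UMIs at the median in wild-type cells at 1 to 10% mt-, with 5 and 95% of cells below 8.98 and 12.7%. In knockout cells the median was 16.1%, with the same limits at 12.9 and 20.8%. All 731 knockout cells lay above the wild-type median, and 699 (95.6%) lay above the wild-type 95% limit. Under 1% mt- the medians were 9.13% in the 16 wild-type cells and 12.7% in the 244 knockout cells, of which 243 lay above the wild-type median. In the cells with fibroblast genes they were 12.5 and 16.8%.

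**Figure D4:**
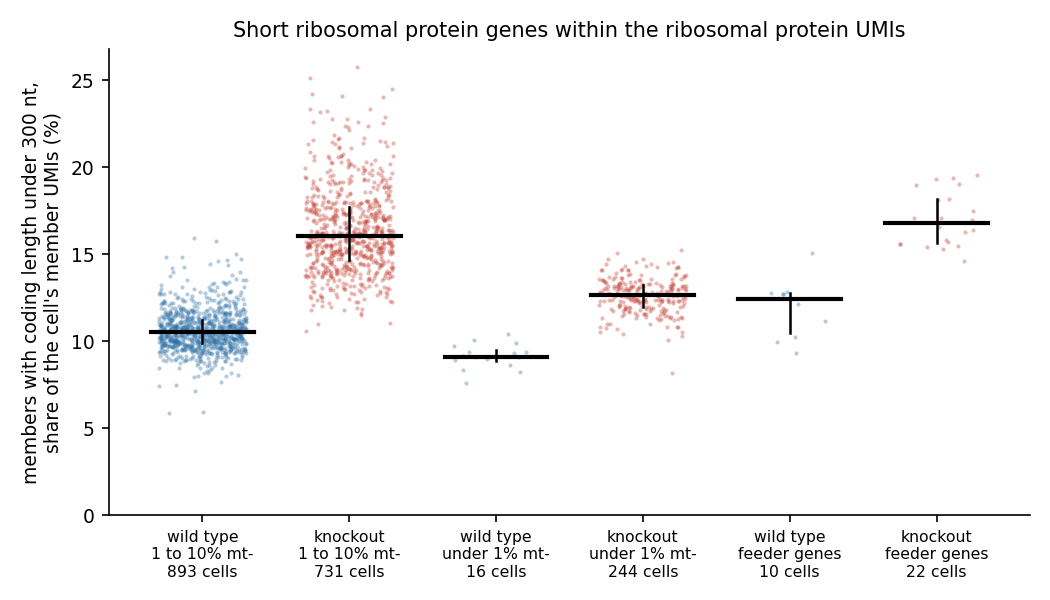
Share of a cell's ribosomal protein UMIs that came from members with a coding length under 300 nt, in percent; each point is a cell, the thick bar the median and the thin line the middle 50% of cells. In each of the 3 sets of cells the knockout library stands above the wild-type library, with medians of 16.1 against 10.5%, 12.7 against 9.13% and 16.8 against 12.5%.

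Since ribosomal protein mRNAs are known for pyrimidine tracts at their start, the sequence around the annotated starts of the members past 1.3-fold is shown. RefSeq promoters (GRCm38.p6) were matched for 63 of the 84 members, with 75 starts in all, and Rps29 is one of those without an entry. Each window runs from 20 bases before the annotated start to 10 bases into the gene, 30 bases in all, on the coding strand, and capitals mark the longest run of C and T in it. The higher members come first, Rps21 with the first of its 2 annotated starts.
Rps28 (chr17:33824553-33824582, minus strand): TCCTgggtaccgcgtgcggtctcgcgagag
Rpl38 (chr11:114668560-114668589, plus strand): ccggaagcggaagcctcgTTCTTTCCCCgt
Rps27 (chr3:90213639-90213668, minus strand): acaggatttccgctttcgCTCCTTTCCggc
Rps21 (chr2:180257359-180257388, plus strand): gcacttaccgaggacccgCCCTCCTgccca
Rpl39 (chrX:37085213-37085242, minus strand): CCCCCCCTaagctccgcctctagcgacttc
Rpl37 (chr15:5116593-5116622, plus strand): gaagtagTTTCCTgggcggaagcttatcca
Rpl37a (chr1:72711240-72711269, plus strand): gtcaCTTCCgctcgccggtctaaaaccgcg
Rpl41 (chr10:128549159-128549188, minus strand): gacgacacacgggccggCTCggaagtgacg

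For Rpl23a, Rpl6l and Rpl3, the members lower by 1.3-fold, no window is shown. The next lowest members short of that size, and Rps18, whose variation is described further on, had these windows.
Rpl27 (chr11:101442225-101442254, plus strand): ccggaacgctctgTTCCTgtctgctgctcg
Rps3a1 (chr3:86142659-86142688, minus strand): gaTTCTTaaagccggaagggcgaaagagca
Rpl4 (chr9:64173367-64173396, plus strand): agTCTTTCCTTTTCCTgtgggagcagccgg
Rps18 (chr17:33955656-33955685, minus strand): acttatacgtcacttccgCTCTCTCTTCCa

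A run of at least 8 pyrimidines stood in 29 of the 75 member windows (38.7%), against 12.6% of the windows of all 32851 annotated starts. Of the 8 higher members with a window it was present in Rpl38, Rps27 and Rpl39. Runs were counted anywhere in the window, so they need not lie at the start of the mRNA. The run in Rpl39 lies wholly before the annotated start. The CArG box, the sequence SRF binds, was searched on both strands from 250 bases before the start to 50 bases into the gene. It was found at 1 of the 75 member starts (1.33%), in Rpl10a, and at 1.63% of all starts. A match to letters is not a site of binding, and the absence of a match says nothing of the factor.

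Several members have a paralog in the list, and the pairs differed in part. Rpl22 and Rpl22l1, of which the former is known to repress the latter, had log2 ratios of -0.16 and -0.28 in cells at 1 to 10% mt-. Rpl7 and Rpl7l1 had -0.23 and -0.13. Rps27, at 0.73, stood apart from Rps27l, which is known as a target of p53 and stood at 2038 and 1884 CPM. Both coding sequences have 252 nt, and they differ at 60 positions (76.2% identity). They are shown because the pair has 1 length and unlike ratios; capitals mark the differing bases, and the sequences are from GENCODE M21.
Rps27: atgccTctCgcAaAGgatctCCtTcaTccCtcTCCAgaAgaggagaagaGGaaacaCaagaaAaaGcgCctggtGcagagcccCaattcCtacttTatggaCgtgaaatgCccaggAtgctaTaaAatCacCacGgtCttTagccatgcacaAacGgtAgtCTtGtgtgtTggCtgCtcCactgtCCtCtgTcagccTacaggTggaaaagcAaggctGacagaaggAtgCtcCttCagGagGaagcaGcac
Rps27l: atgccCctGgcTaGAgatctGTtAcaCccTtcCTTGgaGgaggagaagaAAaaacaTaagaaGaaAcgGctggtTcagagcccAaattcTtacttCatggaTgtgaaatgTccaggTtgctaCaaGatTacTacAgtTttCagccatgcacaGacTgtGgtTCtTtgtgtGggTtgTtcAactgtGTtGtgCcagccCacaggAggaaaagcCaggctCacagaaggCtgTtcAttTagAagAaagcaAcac

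The other paralogs were rare. Rpl39l, a relative of Rpl39 known from testis, had 99 UMIs in the knockout (5.44 CPM) and 232 in the wild type (9.97 CPM), the opposite direction to Rpl39. Each has 153 nt of coding sequence, and they differ at 23 positions (85.0% identity), marked by capitals.
Rpl39: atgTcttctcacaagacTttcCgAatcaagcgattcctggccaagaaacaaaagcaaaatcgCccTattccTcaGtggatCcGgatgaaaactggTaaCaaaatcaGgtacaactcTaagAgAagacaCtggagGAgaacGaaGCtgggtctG
Rpl39l: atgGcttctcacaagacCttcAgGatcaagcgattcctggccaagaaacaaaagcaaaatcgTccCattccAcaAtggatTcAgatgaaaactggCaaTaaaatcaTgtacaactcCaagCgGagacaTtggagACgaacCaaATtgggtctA
Rpl3l, a form known from muscle, had 35 and 38 UMIs. Rpl10l, a relative of Rpl10 known from testis, had 218 and 156 UMIs. These 3 members stayed under the mean of 10 CPM needed for a ratio in this comparison. Rpl10 itself had -0.29, Rpl3 -0.41 and Rps4x -0.24.

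Ribosomal protein genes have many near-identical copies in the genome, and how reads shared between copies were counted is not given in the sources used here, so single values are uncertain to that extent. The matrices name 17 such copies. Rpl23a-ps3 stood at 401 and 561 CPM (log2 ratio -0.48), beside -0.51 for Rpl23a. Rps27rt stood at 223 and 197 CPM (0.18), beside 0.73 for Rps27. Rps18-ps3 stood at 48.2 and 74.7 CPM (-0.63), beside -0.28 for Rps18.

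Knockout cells under 1% mt- were compared with knockout cells at 1 to 10%, 82 members being tested. This comparison and the one above share the latter cells, so their values are not related to each other. The median over members was 0.05, against -0.09 over 6039 genes and 0.28 over those of at least 100 CPM. In the cells under 1%, 8 members (9.76%) were higher by 1.3-fold, where 27.4% of all genes were, and 4 (4.88%) were lower, where 39.4% were. Over the genes of at least 100 CPM, members among them, 43.4% were higher and 12.6% lower.

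The higher members all had symbols of the large subunit but for the X-linked Rps4x. Rpl7l1 stood at 275 CPM in cells under 1% and 167.5 CPM in cells at 1 to 10%, a log2 ratio of 0.72, and Rpl6l at 305 and 200.2 CPM, a ratio of 0.61. Rpl5, which carries the smallest ribosomal RNA to the large subunit, stood at 2430 and 1696 CPM (0.52). Rpl7 and Rpl10, which joins the large subunit late, both had 0.46, Rps4x 0.42, and Rpl3 and Rpl27 0.38 each.

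The 4 lower ones were short members, Rps27 (-0.59), Rps29 (-0.51), Rps28 (-0.50) and Rpl41 (-0.47), followed by Rpl36 (-0.37) and Rps27l (-0.34). Rps29 stood at 6417 CPM in the cells under 1% and 9127 CPM in those at 1 to 10%. The median was -0.33 over the 10 short members and 0.22 over the 24 of 600 nt or more. In the wild-type library the same medians were -0.14 and 0.15, from 16 cells under 1%. At an upper limit of 5% mt-, the higher members were 3, and at 1.5-fold 2, with the shares of all genes not taken at these settings.

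Knockout and wild-type libraries were also compared in cells under 1% mt-. Of 81 members tested, 6 (7.41%) were higher in the knockout, where 22.0% of all genes were, and 8 (9.88%) were lower, where 42.1% were. Over the genes of at least 100 CPM, members among them, 35.7% were higher and 12.9% lower. The median over members was -0.07, against -0.20 over 5815 genes and 0.22 over the 1281 of at least 100 CPM. With the members' own sum as denominator the median was 0.0403, so no direction is read from it. The higher members were Rpl38 at 3618 CPM in the knockout and 2161 CPM in the wild type (0.74), Rpl7l1 (0.61), Rps29 (0.61), Rps21 (0.59), Rpl35 (0.45) and Rps28 (0.43). The median over the 10 short members was 0.30, and 4 of them were higher by 1.3-fold. Other genes under 300 nt had a median of 0.21, and those of at least 100 CPM 0.33 with 44.1% of 102 higher, so the median of the short members lay between these.

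The lower members were led by Rps19, the gene most often mutated in Diamond-Blackfan anaemia, at 6349 CPM in the knockout and 9303 CPM in the wild type (-0.55). Rpl29 followed at -0.46, Rps18 and Rps14 at -0.43, Rps23 and Rpl17 at -0.42, and Rps20 and Rpl13a at -0.41. None of these 8 was lower by 1.3-fold at 1 to 10% mt-, where they ranged from -0.29 for Rpl17 to -0.08 for Rps19. The difference between the ranges was not tested. The count of lower members was 2 with the limit at 2% mt-, where the wild type has 79 cells and the share of all genes was not taken.

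Variation between cells was measured after each cell had been thinned to 5000 UMIs, which kept 724 knockout and 888 wild-type cells at 1 to 10% mt- and left out 7 and 5. The squared coefficient of variation (CV2, variance over squared mean) was higher in the knockout for 69 of 81 members (85.2%), where it was higher for 58.3% of the 1138 genes measured. Among 63 other genes that reached a thinned mean of 5, which are nearer to the members in level, it was higher for 47 (74.6%). The median CV2 of the members was 0.0766 over knockout and 0.0659 over wild-type cells, and the median log2 ratio was 0.25, against 0.17 over those 63 genes.

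A Poisson count has a CV2 of 1 over its mean, and taking that off leaves the variation beyond sampling. At the median member it was 0.0307 for knockout cells and 0.0198 for wild-type cells, and higher in the knockout for 73 of 81 members. It was also higher in the knockout for 589 of 954 other genes. Among the 63 other genes of thinned mean 5 or more it was higher for 44. The median log2 ratios were 0.58 and 0.59 for the small and the large subunit. They were 0.25 over the 954 other genes and 0.23 over those 63. For the 10 short members the median log2 ratio was -0.08 for CV2, and 0.36 above Poisson.

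The largest ratios of CV2 belonged to Rps18, at 0.0707 over knockout and 0.0435 over wild-type cells (log2 0.70), Rps4x (0.66), Rps3a1 (0.64), Rpl7 (0.62) and Rpl23a (0.61). The lowest belonged to Rpl38, at 0.0694 and 0.112 (-0.70), Rps21 (-0.42), Rps28 (-0.40), Rpl35 (-0.17) and Rps26 (-0.15). Of these 5, Rps21, Rps28 and Rpl35 had more variation above Poisson in the knockout (0.38, 0.12 and 0.37), while Rpl38 and Rps26 had less (-0.36 and -0.15). The member with the most variation above Poisson was Rpl7l1, at 0.238 and 0.106.

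**Figure D5:**
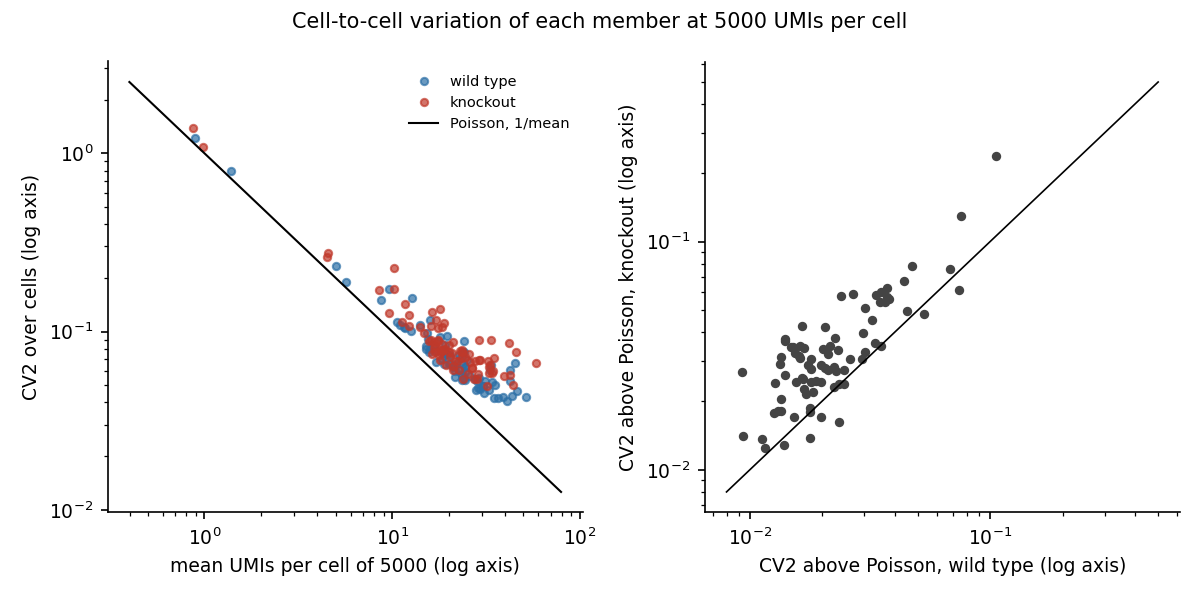
Cell-to-cell variation of 81 members in cells with 1 to 10% mt-, each thinned to 5000 UMIs, on log axes: CV2 against mean UMIs per cell with the Poisson line (left), and CV2 above Poisson in the knockout against the wild type with the line of equality (right). Each point is a gene. On the right 73 of the 81 points lie above the line. Of 63 other genes of thinned mean 5 or more, which are not plotted, 44 had more variation above Poisson in the knockout.

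The members varied together from cell to cell in both libraries. Their summed count at 5000 UMIs ranged from 794 to 2495 in knockout cells and from 835 to 2573 in wild-type cells. Its coefficient of variation (CV) was 0.116 over knockout cells and 0.0958 over wild-type cells, far above the 0.0188 and 0.0181 that binomial sampling gives. The variance of the sum was 12.5 times the sum of the members' variances for the knockout and 10.6 times for the wild type. The sums of the small subunit and of the large subunit with the stalk had a Pearson's r of 0.88 across knockout cells and 0.85 across wild-type cells, within a fixed total they share.

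The spread was also measured without the cells that carried primitive endoderm markers. Without them the CV was 0.0986 over 615 knockout cells and 0.0928 over 884 wild-type cells, a log2 ratio of 0.0878 where it was 0.28 with them. Without the cells of raised chromosome 8 share it was 0.134 over 359 knockout cells and 0.0950 over 800 wild-type cells, a log2 ratio of 0.50. In knockout cells under 1% mt- it was 0.0884 over 227 cells, lower than at 1 to 10%, and in the wild type 0.112 over 16 cells. There the CV2 of the median member had a log2 ratio of -0.15, which rests on those 16 wild-type cells.

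Related lists put the members beside the rest of the translation machinery, at 1 to 10% mt- and the same 1.3-fold, with 17.3% of genes higher and 6.77% lower at large. Of 64 ribosome biogenesis genes tested, 19 were higher and 0 lower in the knockout, with a median log2 ratio of 0.17. The highest were Heatr1 (1.03), Nip7 (0.80) and Taf1d (0.79), and the lowest Fbl (-0.26), Npm1 (-0.28) and Polr1c (-0.33). Heatr1 and Nip7 act in making ribosomal RNA and the subunits, and Fbl methylates ribosomal RNA.

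Of 41 translation factors 2 were higher and 1 lower, with a median of -0.04. Eif4g1 (0.50), Eif4g2 (0.48) and Gspt1 (0.29) were at the top and Naca (-0.33), Eif3m (-0.36) and Eif4a2 (-0.43) at the bottom. Of 76 mitochondrial ribosomal proteins 1 was higher and 1 lower, with a median of -0.03. Mrpl3 (0.47), Mrpl44 (0.28) and Mrpl34 (0.27) were at the top and Mrpl42 (-0.30), Mrps24 (-0.37) and Mrpl14 (-0.47) at the bottom. These proteins work in the other ribosome of the cell, that of mitochondria.

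Of 17 regulators of translation 3 were higher and 0 lower, with a median of 0.18. Myc, which drives ribosomal genes, had 352 UMIs over knockout and 163 over wild-type cells, a log2 ratio of CPM of 1.46. Larp4 had 0.49 and Larp1, which binds the pyrimidine tract mRNAs, 0.40, while Rheb (-0.06), Max (-0.11) and Mtor (-0.22) were lowest. Of 17 genes of the p53 response, which ribosome stress can set off, 5 were higher and 0 lower, with a median of 0.19. Perp (1.01), Sesn2 (0.90) and Mdm2 (0.85) were highest and Bbc3 (-0.07), Trp53inp1 (-0.09) and Bax (-0.24) lowest.

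The same lists were compared between knockout cells under 1% mt- and those at 1 to 10%. Medians were 0.41 for translation factors (21 higher, 5 lower) and 0.39 for mitochondrial ribosomal proteins (40 and 1). For ribosome biogenesis the median was 0.37 (31 and 15), beside 0.05 for the members. At large, 27.4% of genes were higher and 39.4% lower. Over the genes of at least 100 CPM, 43.4% were higher and 12.6% lower, with a median of 0.28. The median was -0.36 for regulators of translation (2 and 7) and -0.69 for the p53 response (2 and 11). Whether these lists differ from the members was not tested.

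The symbols of some ribosomal proteins are not matched by the rule, among them Fau, which is made as a fusion with a ubiquitin-like protein, and Rpl36al. At 1 to 10% mt-, Fau stood at 2681 CPM in the knockout and 3057 CPM in the wild type, a log2 ratio of -0.19. Rpl36al stood at 1385 and 1455 CPM (-0.07). Rps27a, a member made as a fusion with ubiquitin, had -0.22.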

How the data were processed

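Droplet libraries of 1 knockout and 1 wild-type culture were used. The authors deposited whole-number UMI counts per gene and cell, not normalised, in integer matrices per the file headers. Cell Ranger 2.0.0, Seurat 3.1.1 and the build mm10 are named in the submitters' processing notes, without their roles. The annotation, the cell calling and the treatment of reads shared between copies are not given in the sources used here. Since reads shared between copies may be dropped or assigned, levels of genes with copies can be off.

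The members, the lists and the rules were chosen with earlier results of these data known, and the coding length limits after the ratios were seen. Counts were summed over cells and scaled to CPM. Log2 ratios were taken with 0.5 counts added for genes whose mean over both sums reached 10 CPM. Intervals at 95% are exact (Clopper-Pearson for shares, conditional on the total for ratios). Doublets were not called, and an alternative left out the top 5% of cells by UMIs. Cells with under 1000 genes (5 knockout, 2 wild type) were left out. Thinning was without replacement. All 84 members were found by identifier in GENCODE M21 (GRCm38), which gives positions and coding lengths of the principal transcript, and Rpl6l has none there. Rps4l, on the fixed list of paralogs, is not a symbol of the matrices. Scripts were tested on simulated data (Python 3.11.15, numpy 2.4.6, scipy 1.17.1, pandas 2.3.3).

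Named were the stalk genes, paralog pairs, Rpsa, Rpl5, Rpl11 and Rps6, the 6 highest and 6 lowest ratios of each comparison, the 5 highest and 5 lowest CV2 ratios, members under 10 CPM, and the 3 highest and 3 lowest of each related list. For that between knockout cells under 1% and at 1 to 10% mt-, list genes are given as counts. Other genes, such as those higher by 1.3-fold, Rpl35 in cells with fibroblast genes, the 5 most abundant other short genes and the copies shown, were named after their values were seen. Single values of some genes are not reported here.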

Additional observations from a re-analysis of the deposited data

How the results depend on the processing

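No paired analysis was possible because the genotypes have a single library each. Over 27 alternatives, 250 of 279 values of the 15 summary results stayed near their first value and 29 moved, and of 399 values of 21 named members 395 stayed within 0.1 (log2). The others include Rpl6l (-0.59), Rpl7l1 (-0.25) and Rpl13 (-0.19) without the cells of raised chromosome 8 share. The median ratio at 1 to 10% mt- ranged from -0.17 to -0.10.

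The share under 1% mt-, knockout minus wild type, was -2.09 points with the limit at 2% and -2.86 points in cells of at least 10000 UMIs. That between knockout cells under 1% and at 1 to 10% was -0.352 in cells of at least 10000 UMIs and -2.60 without mt- genes. Members lower in the knockout under 1% numbered 2 (limit 2%), 13 (denominator without members), 5 (cells weighted equally), 18 (1.2-fold), 0 (1.5-fold) and 1 (denominator of members alone, which also gave a median of 0.0403). In knockout cells under 1% against 1 to 10%, higher members numbered 3 (limit 5%), 5 (no mt- genes), 13 (1.2-fold) and 2 (1.5-fold), and lower ones 8 (no mt- genes), 10 (1.2-fold) and 1 (1.5-fold). At 1 to 10%, lower members in the knockout numbered 11 (1.2-fold) and 0 (1.5-fold), and higher ones 5 (1.5-fold). The shares of all genes past the fold were not taken under these alternatives. These counts of members are therefore not set against genes at large. The log2 ratio of the CV of the sum was 0.0878 without primitive endoderm cells, 0.50 without cells of raised chromosome 8 share and 0.14 without thinning. The median CV2 ratio was 0.43 without the latter cells, 0.36 at 10000 UMIs and 0.57 above Poisson. The median of short members was 0.48 from 1 CPM and 0.69 without paralogs. The denominator of members alone and leaving out cells with macrophage markers were chosen after seeing the data.

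Depth limits the small wild-type sets: 16 cells and 286036 UMIs under 1% mt-, 10 cells and 176701 UMIs with fibroblast genes, and 33 cells and 261927 UMIs above 10%. There is no replicate of either genotype, so the spread between cultures or preparations is unknown.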

Other observations

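Cells above 10% mt- belong in no comparison above. Their median share of UMIs from ribosomal protein genes was 14.4% in 71 knockout cells and 20.1% in 33 wild-type cells, with median mt- shares of 27.2 and 17.3%. Without mt- genes in the denominator the medians were 21.7 and 24.5%. The short members supplied 17.4 and 12.3% of the member UMIs at the median, and their median log2 ratio of knockout over wild-type library was 0.41, against -0.24 over members of 300 to under 600 nt and -0.32 over those of 600 nt or more.

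In the cells with fibroblast genes the median share was 31.2% in 22 cells of the knockout library (20.6 to 53.1%). It was 33.9% in 10 cells of the wild-type library (7.98 to 36.5%). Rpl35, with 369 nt, had a log2 ratio of 0.93 there and 0.37 in the other cells at 1 to 10% mt-.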
